A study of Homo sapiens with 4 samples.

Results

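Toll-like receptors and the proteins that carry their signal to NF-kB were compared between MDA-MB-231, a human breast cancer cell line that lacks the oestrogen and progesterone receptors, and LM2-4175, a line that was isolated from it and metastasizes to the lung. The genes were taken by name: 37 symbols, which matched 38 entries of the 57815 in the table because TLR9 is listed under 2 gene identifiers. They were the Toll-like receptors TLR1 to TLR10, the adaptors MYD88, TIRAP and TICAM1, the IRAK and TRAF families, RIPK1 and RIPK2, the TAK1 and IKK complexes, MAP3K14, the cytosolic receptors NOD1 and NOD2, and MB21D1 and TMEM173, the older names of the genes for cGAS and STING. Untreated cells of both lines were grown in the same serum-supplemented medium, and total RNA of 2 libraries per line was sequenced. The table combines the 2 libraries of a line in 1 FPKM value (fragments counted per length of transcript and per depth of the library) with a lower and an upper bound. No value per library was examined, so no difference below has a replicate check, and it is not stated in the sources used here what the bounds cover.

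Toll-like receptors are membrane proteins that bind products of microbes and of damaged cells, at the cell surface (TLR1, TLR2, TLR4, TLR5, TLR6, TLR10) or in endosomes (TLR3, TLR7, TLR8, TLR9). Most of them recruit MYD88, which assembles IRAK kinases, while TLR3 uses TICAM1 and TLR4 uses both adaptors. The signal passes through TRAF6 to the kinase TAK1 (MAP3K7) with its TAB partners and on to the IKK complex, which marks the inhibitors of NF-kB for destruction. Receptors of the interleukin-1 family share the MYD88 and IRAK steps, and MAP3K14 starts a separate, noncanonical branch that TRAF2 and TRAF3 hold in check.

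The log2 fold change compares FPKM + 1 of LM2-4175 with FPKM + 1 of MDA-MB-231, so differences of genes with low levels come out too small. Ratios are given as plain FPKM ratios without the added 1 and can therefore lie farther from 1 than the log2 fold change beside them. A gene was tested where its mean FPKM was at least 0.5, and called where FPKM + 1 differed by 1.5-fold or more with bounds that lay apart. In bulk RNA fewer cells of a type and less RNA per cell cannot be told apart. Of the 38 entries 32 were tested, and those for TLR7, TLR8, TLR9, TLR10 and NOD2 were too low. By this rule IRAK2, IRAK3 and TRAF1 were called higher in LM2-4175 and no entry was called lower, while 29 tested entries were not called. Among all genes, 9.27% of 13911 genes tested were called, 4.67% higher and 4.61% lower, so the share of the pathway genes called in either direction (9.38%) was near this background. With the bounds alone the same 3 genes were called, against 9.39% of all genes (4.74% higher and 4.64% lower). The median log2 fold change of the 32 entries was -0.02, against -0.04 for all genes tested. On the scale of FPKM + 1 the difference was under 1.5-fold for 28 of the 32 entries (87.5%) and for 77.9% of all genes tested. TLR1 is among these 28, although its plain ratio was 1.67.

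**Figure D1:**
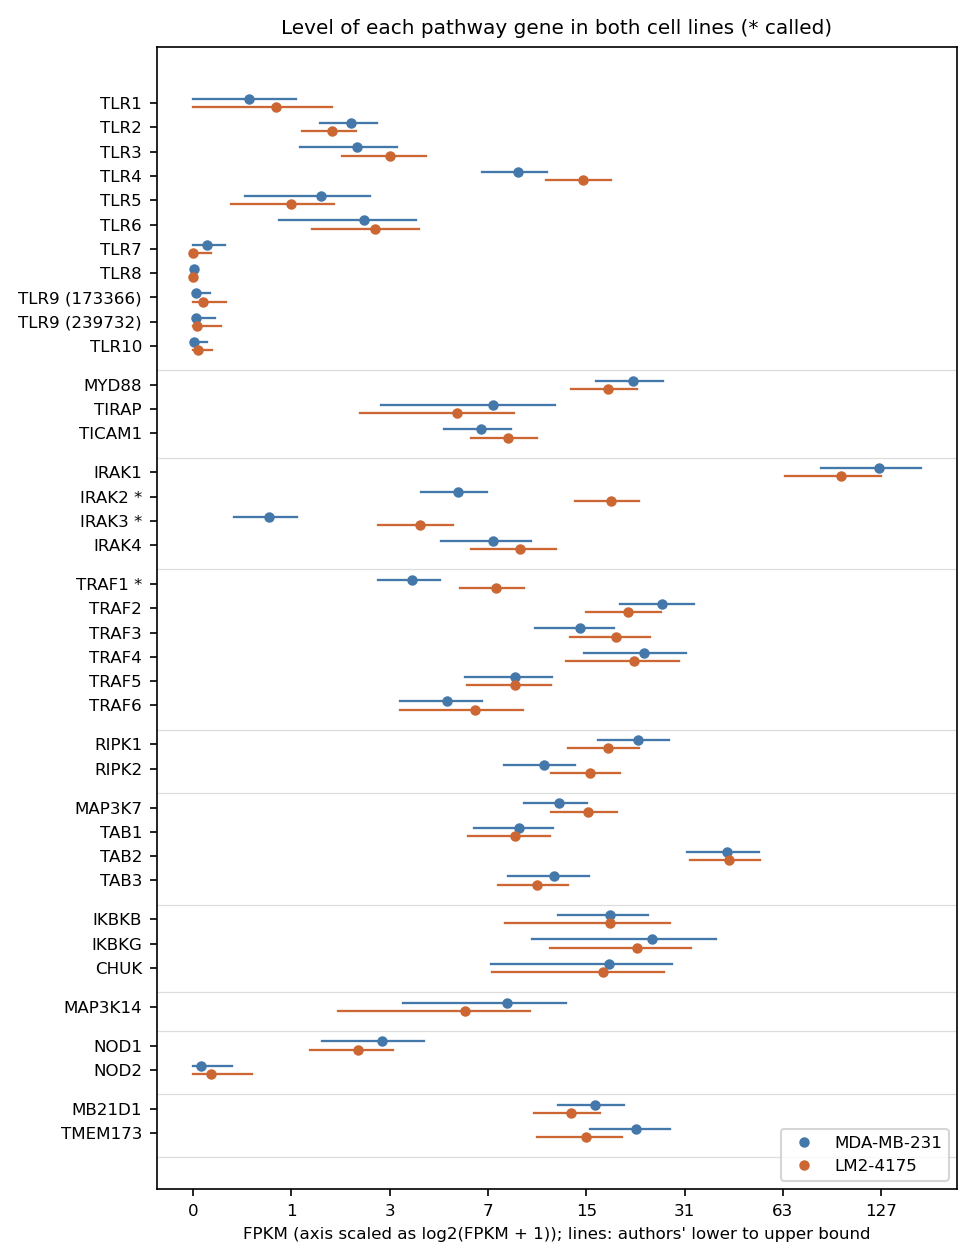
FPKM of each pathway gene in MDA-MB-231 (blue) and LM2-4175 (orange), grouped by role, on an axis scaled as log2(FPKM + 1). Points are the deposited values and lines run from the authors' lower to upper bound. The bounds were apart for IRAK2, IRAK3 and TRAF1 (asterisks), and they overlapped slightly for TLR4, with a gap of -0.0287 FPKM.

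In both cell lines the cell type labels were checked against marker genes. VIM, a mesenchymal marker, had 1355.0 FPKM in MDA-MB-231 and 1767.5 FPKM in LM2-4175, and ESR1 and PGR were under 0.04 FPKM in both. CD44 went the other way with 469.7 and 355.0 FPKM. ERBB2 had 35.0 and 22.8 FPKM, and CDH1 had 0.851 and 0.366 FPKM. The bounds of VIM, CD44, ERBB2 and CDH1 overlapped. The epithelial genes KRT8 (625.7 and 180.2 FPKM), KRT18 (448.5 and 181.1 FPKM) and EPCAM (12.3 and 4.93 FPKM) were called lower in LM2-4175. Of 14 white blood cell markers, 11 were under 0.5 FPKM in both lines, and CD3E was listed at 0 in both. The pan-leukocyte marker PTPRC had 0.0767 and 0.0263 FPKM. The 14 markers summed to 112.2 FPKM in the parental MDA-MB-231 line and to 182.1 FPKM in LM2-4175. Without CD68, whose bounds ran from 0 to 237.6 FPKM and from 10.6 to 347.2 FPKM, the sums were 5.22 and 3.23 FPKM. Of 4 endothelial markers 3 were under 0.5 FPKM in both lines, and KDR was called higher in LM2-4175 with 0.971 and 2.48 FPKM. Of 5 fibroblast markers 3 were under 0.5 FPKM in both lines, COL1A1 was called higher with 3.16 and 31.0 FPKM, and LUM was called lower with 1.34 and 0.178 FPKM. The fibroblast markers summed to 4.74 and 31.3 FPKM.

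Among the receptors TLR4, which detects bacterial lipopolysaccharide, had the highest level in both cell lines. MDA-MB-231 cells had 8.87 FPKM (between bounds of 6.66 and 11.1), and LM2-4175 cells had 14.6 FPKM (between 11.1 and 18.1). LM2-4175 was thus 1.64 times as high as a plain ratio, and the log2 fold change of FPKM + 1 was 0.66. The gap between the bounds was -0.0287 FPKM, a slight overlap, so TLR4 was not called. It was called higher with the fold alone, by which 10.3% of all genes tested were higher and 11.8% lower. It was also called higher with a rule on the standard errors, by which 1054 genes were higher and 1264 lower. The main rule gave 649 higher and 641 lower. Scaling both lines to the same FPKM sum also called TLR4 higher, with 735 genes higher and 547 lower. So did quantile normalization, with 645 higher and 614 lower. Under the other alternatives run TLR4 was not called. The gene (ENSG00000136869) occupies bases 120466453 to 120487013 of chromosome 9 (GRCh37, plus strand), and an unnamed gene on the same strand overlaps 5.11% of its exon bases. It made up 50.7% of the summed FPKM of the 11 receptor entries in MDA-MB-231 and 61.2% in LM2-4175.

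The receptors behind TLR4 were lower by a clear gap, since its bounds lay apart from those of the next receptor in each line. TLR6, TLR3 and TLR2 followed in MDA-MB-231 with 2.33, 2.17 and 2.04 FPKM. TLR3, TLR6 and TLR2 followed in LM2-4175 with 3.02, 2.61 and 1.65 FPKM. The bounds of each of these receptors overlapped with those of the next in both lines, and so neighbours in the order below TLR4 were not resolved. Farther apart in the order, TLR2 and TLR3 had bounds above that of TLR1 in MDA-MB-231, and TLR3 had bounds above those of TLR5 and TLR1 in LM2-4175. TLR3, the receptor for double-stranded RNA, had a log2 fold change of 0.34, and a ratio from 0.577 to 3.70 is within its bounds. TLR2, which pairs with TLR1 or TLR6 to bind bacterial lipopeptides, had a ratio of 0.81 with a range from the bounds of 0.435 to 1.5. The level of TLR5, the flagellin receptor, was 1.46 FPKM in MDA-MB-231 and 0.997 FPKM in LM2-4175. TLR1 had 0.479 and 0.8 FPKM with lower bounds of 0. TLR1 and TLR6 are closely related neighbours on chromosome 4 whose exons overlap, and how reads were divided between them is not known, so their values are uncertain.

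The endosomal receptors of nucleic acids other than TLR3, and the surface receptor TLR10, were at or near 0. TLR7 had 0.105 FPKM in MDA-MB-231 (bounds 0 to 0.25) and 0.00195 FPKM in LM2-4175 (0 to 0.134). TLR8 was listed at 0 in LM2-4175, and MDA-MB-231 had 0.00376 FPKM. The entry that GENCODE 44 names TLR9 (ENSG00000239732) had 0.0233 and 0.0305 FPKM, and the other entry of that name (ENSG00000173366), all of whose exon bases overlap other genes, had 0.0196 and 0.0746 FPKM. TLR10 had 0.00404 and 0.0381 FPKM. The lower bound was 0 in both lines for each of these entries, and no fold change is given for them.

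The adaptors were expressed in both cell lines and none was called. MYD88 had 21.2 FPKM in MDA-MB-231 (16.1 to 26.4) and 17.6 FPKM in LM2-4175 (13.3 to 21.9). Its ratio was 0.83, and the bounds allow 0.504 to 1.37. TIRAP, which brings MYD88 to TLR2 and TLR4 at the membrane, had 7.30 and 5.43 FPKM with wide bounds (2.76 to 11.8 and 2.24 to 8.62), and antisense genes overlap 12.1% of its exon bases. TICAM1, the adaptor of TLR3, had 6.62 FPKM (4.86 to 8.38) and 8.20 FPKM (6.09 to 10.3), a ratio of 1.24. MYD88 and TIRAP were thus lower and TICAM1 was higher in LM2-4175, each by a difference within the bounds.

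The IRAK family held the largest changes. IRAK2, a kinase-like protein that sustains the signal towards TRAF6, had 5.46 FPKM in MDA-MB-231 (4.0 to 6.93) and 18.0 FPKM in LM2-4175 (13.7 to 22.3). It rose 3.29-fold as a plain ratio, with a log2 fold change of FPKM + 1 of 1.56 that was above that of 98.2% of all genes tested, and the bounds allow a ratio between 1.98 and 5.56. Its level lay above that of 33.9% of the genes tested in MDA-MB-231 and above 61.9% in LM2-4175. The gene (ENSG00000134070) occupies bases 10206603 to 10285429 of chromosome 3 (GRCh37, plus strand), and its exons are shared with no annotated gene.

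IRAK3, also named IRAK-M, lacks kinase activity and restrains signalling from Toll-like and interleukin-1 receptors, and it is best known from monocytes and macrophages. MDA-MB-231 cells had 0.706 FPKM (0.333 to 1.08) and LM2-4175 cells had 3.97 FPKM (2.69 to 5.24). IRAK3 rose 5.62-fold as a plain ratio, and its log2 fold change with the pseudocount of 1 was 1.54. The bounds allow a ratio of 2.50 to 15.8. The gene (ENSG00000090376) occupies bases 66582975 to 66648402 of chromosome 12 (GRCh37, plus strand), and 2.52% of its exon bases are shared with an antisense gene. The myeloid markers ITGAM, SPI1 and TYROBP were under 0.04 FPKM in both lines. CSF1R was lower in LM2-4175, with 2.92 FPKM in MDA-MB-231 and 0.79 FPKM in LM2-4175. LYZ was also lower, with 0.448 and 0.16 FPKM. CD68 (107.0 and 178.9 FPKM), CD14 (1.17 and 1.75 FPKM) and FCER1G (0.263 and 0.375 FPKM) were higher in LM2-4175. The bounds of CSF1R, LYZ, CD68, CD14 and FCER1G all overlapped between the lines. The part of these markers in the IRAK3 result was not tested.

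IRAK1 and IRAK4, the kinases that act first after MYD88, were not called. IRAK1 was the highest of all the pathway genes, with 125.3 FPKM in MDA-MB-231 (82.7 to 167.9) and 95.4 FPKM in LM2-4175 (63.8 to 127.0). Its log2 fold change was -0.39 and the bounds allow a ratio of 0.38 to 1.54. IRAK4 had 7.31 and 8.99 FPKM, a ratio of 1.23. IRAK1 made up 90.3% of the summed FPKM of the family in MDA-MB-231 and 75.5% in LM2-4175, while IRAK2 went from 3.94% to 14.2% and IRAK3 from 0.509% to 3.14%. The FPKM of IRAK1 was 22.9 times that of IRAK2 in MDA-MB-231 and 5.30 times in LM2-4175.

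**Figure D2:**
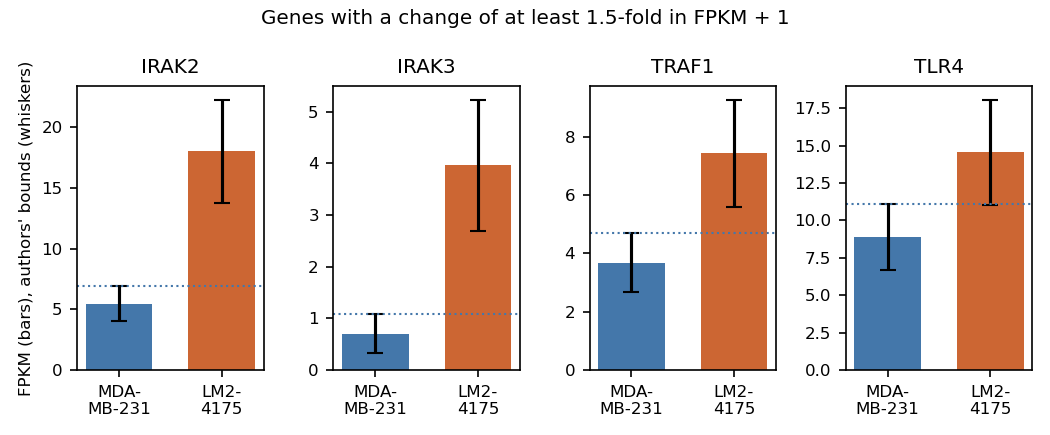
FPKM in MDA-MB-231 and LM2-4175 of the pathway genes tested whose FPKM + 1 differed by at least 1.5-fold, with the authors' bounds as whiskers and the upper bound of MDA-MB-231 as a dotted line. The lower bound of LM2-4175 lay above this line for IRAK2, IRAK3 and TRAF1 and just under it for TLR4.

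Of the 6 TRAF genes, whose products link receptors to kinases and mostly act as ubiquitin ligases, TRAF1 was called higher. TRAF1 lacks the RING domain of the other family members and binds TRAF2, and the gene is a known target of NF-kB. MDA-MB-231 cells had 3.69 FPKM (2.68 to 4.70) and LM2-4175 cells had 7.43 FPKM (5.59 to 9.28). TRAF1 rose 2.02-fold as a plain ratio, and its log2 fold change with the pseudocount of 1 was 0.85. The bounds allow a plain ratio of 1.19 to 3.47, and on the scale of FPKM + 1 TRAF1 was not called at a fold threshold of 2 in place of 1.5. It (ENSG00000056558) occupies bases 123664671 to 123691451 of chromosome 9 (GRCh37, minus strand), and its exons overlap no other gene.

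TRAF6, the ubiquitin ligase on which the MYD88 branch depends, had 4.99 FPKM in MDA-MB-231 (3.29 to 6.68) and 6.29 FPKM in LM2-4175 (3.31 to 9.26). TRAF2 had 26.2 FPKM (19.3 to 33.2) and 20.5 FPKM (15.0 to 26.0), so TRAF2 was 7.11 times TRAF1 in the parental line and 2.76 times in LM2-4175. TRAF3 had 14.3 and 18.7 FPKM, and TRAF4 had 23.0 and 21.3 FPKM. TRAF5 was nearly equal with 8.70 and 8.68 FPKM, and the sign of its difference turned under 3 scalings of the data. The differences of these 5 genes were under 1.5-fold with overlapping bounds.

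The kinases below the TRAF proteins had close values in both cell lines. In the TAK1 complex, MAP3K7 had 12.2 FPKM in MDA-MB-231 and 15.2 FPKM in LM2-4175, a ratio of 1.25 (0.758 to 2.04 from the bounds). Its ubiquitin-binding partner TAB2 had 42.2 and 42.8 FPKM, a ratio of 1.01 (0.609 to 1.69). TAB1 had 8.94 and 8.66 FPKM, and TAB3 had 11.7 and 10.3 FPKM. The log2 fold changes of the complex ranged from -0.17 to 0.30.

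In the IKK complex, the catalytic subunit IKBKB had 17.9 FPKM in MDA-MB-231 (12.1 to 23.7) and 18.0 FPKM in LM2-4175 (8.02 to 27.9). The other catalytic subunit, CHUK, had 17.7 and 16.9 FPKM, and the scaffold IKBKG had 24.5 and 21.9 FPKM. Changes of this complex lay between -0.15 and 0.00 on the log2 scale, but the bounds were wide, and for CHUK they allow a ratio from 0.256 to 3.71. IKBKG has a near-identical pseudogene copy that can share its reads, so its value is uncertain. MAP3K14, the kinase of the noncanonical branch, had 8.12 FPKM (3.39 to 12.9) and 5.78 FPKM (1.78 to 9.78), and an antisense gene overlaps 15.1% of its exon bases.

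RIPK1, a kinase that joins the TICAM1 and TNF receptor branches, had 22.0 FPKM in MDA-MB-231 and 17.6 FPKM in LM2-4175. RIPK2, the kinase below NOD1 and NOD2, went the other way with 10.9 FPKM (7.98 to 13.8) and 15.4 FPKM (11.5 to 19.3), a ratio of 1.41 with bounds that overlapped. NOD1, which detects peptidoglycan fragments in the cytosol, had 2.78 and 2.19 FPKM. NOD2 had 0.0582 and 0.135 FPKM with lower bounds of 0.

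The cytosolic DNA sensing pair was expressed in both lines. MB21D1, encoding the sensor cGAS, had 16.0 FPKM in MDA-MB-231 (12.1 to 19.8) and 13.3 FPKM in LM2-4175 (10.0 to 16.6). TMEM173, encoding its partner STING, had 21.7 FPKM (15.4 to 27.9) and 14.9 FPKM (10.3 to 19.5). The log2 fold change of TMEM173 was -0.51, the lowest of the 32 entries tested, and with a ratio of 0.689 and overlapping bounds it was not called.

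**Figure D3:**
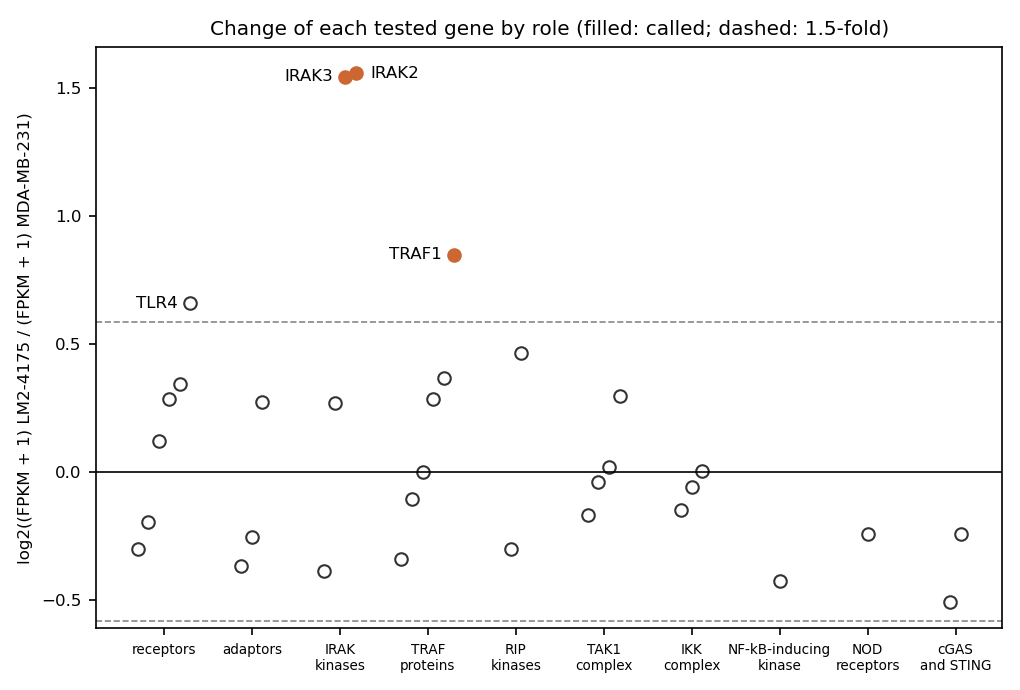
Log2 fold change of FPKM + 1, LM2-4175 over MDA-MB-231, for the 32 entries tested, by role. Filled points were called, and dashed lines mark a change of 1.5-fold. IRAK2, IRAK3 and TRAF1 stand above the line with TLR4, and no point is below the lower line.

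The consensus motif of NF-kB has 10 bases, GGGRNNYYCC, where R is A or G, Y is C or T and N is any base. The sequences before the start sites of the genes called were searched for this motif on both strands. These sequences are shown beside those of 2 genes that hold it but were not called. They are the 250 bases before the start of IRAK2 (chr3:10164669-10164918, plus strand), IRAK3 (chr12:66188964-66189213, plus strand), the first listed start of TRAF1 (chr9:120929172-120929421, minus strand), TICAM1 (chr19:4831713-4831962, minus strand) and TRAF3 (chr14:102777199-102777448, plus strand), from RefSeq on GRCh38.p14, written 5′ to 3′ on the strand of the gene with the motif in capitals.
IRAK2: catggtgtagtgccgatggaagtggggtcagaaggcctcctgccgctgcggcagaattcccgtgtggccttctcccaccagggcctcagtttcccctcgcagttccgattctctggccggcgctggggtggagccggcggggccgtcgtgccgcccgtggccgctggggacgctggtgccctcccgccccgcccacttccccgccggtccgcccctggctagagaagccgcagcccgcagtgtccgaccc
IRAK3: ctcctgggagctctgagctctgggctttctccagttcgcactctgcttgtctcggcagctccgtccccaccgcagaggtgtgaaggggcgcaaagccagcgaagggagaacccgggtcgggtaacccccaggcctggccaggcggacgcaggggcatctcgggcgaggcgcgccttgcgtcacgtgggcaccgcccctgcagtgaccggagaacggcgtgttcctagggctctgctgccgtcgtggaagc
TRAF1: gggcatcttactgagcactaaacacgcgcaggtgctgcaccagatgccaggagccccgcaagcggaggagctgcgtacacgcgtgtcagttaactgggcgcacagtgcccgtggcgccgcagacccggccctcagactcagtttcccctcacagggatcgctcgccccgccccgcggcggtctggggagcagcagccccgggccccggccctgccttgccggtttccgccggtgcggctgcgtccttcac
TICAM1: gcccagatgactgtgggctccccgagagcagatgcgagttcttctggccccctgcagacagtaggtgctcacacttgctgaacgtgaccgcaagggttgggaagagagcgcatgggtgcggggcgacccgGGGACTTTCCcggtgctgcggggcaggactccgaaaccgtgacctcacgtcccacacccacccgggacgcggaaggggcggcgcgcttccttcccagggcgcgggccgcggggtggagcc
TRAF3: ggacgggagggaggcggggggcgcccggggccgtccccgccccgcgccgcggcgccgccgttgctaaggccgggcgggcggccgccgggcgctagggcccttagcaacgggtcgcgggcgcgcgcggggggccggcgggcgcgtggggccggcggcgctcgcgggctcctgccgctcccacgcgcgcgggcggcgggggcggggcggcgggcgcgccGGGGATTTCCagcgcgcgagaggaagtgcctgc

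Of the 37 genes 29 had promoter sequences. The motif was found before a start of 4 of them, TICAM1, IRAK1, TRAF3 and TAB2, and before none of the starts of IRAK2, IRAK3 and TRAF1. It was present in 9.96% of all 35116 promoter windows and before a start of 11.8% of all genes. In TICAM1 the motif GGGACTTTCC lay 120 to 111 bases before the start, and in TRAF3 the motif GGGGATTTCC lay 33 to 24 bases before it. A match is a description of these letters in this window, and sites farther away were not searched.

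The genes were also set beside their neighbours on the chromosome. For 30 tested entries with at least 5 protein-coding neighbours within 3 Mb, the median log2 fold change of the neighbours ranged from -0.53 to 0.48. The entry had the sign of its neighbours' median in 19 cases and the opposite sign in 11, and 18 lay within 0.3 of it. The same counts were not made for all genes tested, so no background stands beside them. TLR1 and TLR6 lie side by side and share neighbours, so the 30 cases are not all separate. TRAF1 was called higher although 23 of 25 neighbours were lower in LM2-4175, with a median of -0.40 and 5 called lower, and its change was above that of all 25. Among the protein-coding genes tested 9.46% were called, 4.66% higher and 4.8% lower. IRAK3 also changed more than all of its 22 neighbours (median 0.15), and IRAK2 more than 38 of 39 (median 0.05).
For TLR4 the 7 neighbours had a median of 0.48 with 3 called higher and 1 lower, so its change was 0.18 above theirs. TRAF2 lies near the end of chromosome 9 among 58 neighbours with a median of -0.53, 17 of them called lower, and its own change was -0.34. IRAK1, at -0.39, lay below 39 of 42 neighbours, whose median was 0.29.

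**Figure D4:**
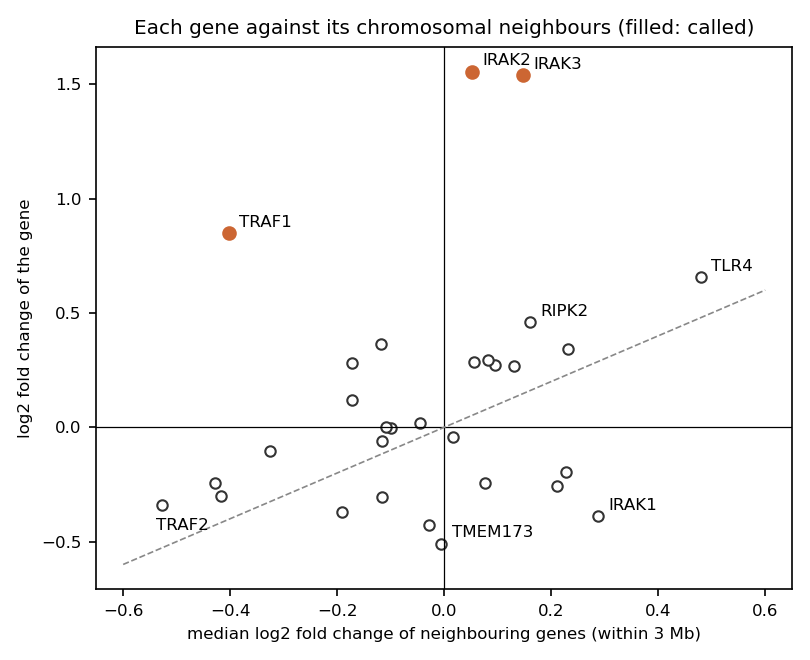
Log2 fold change of each tested gene against the median log2 fold change of the protein-coding genes within 3 Mb, for 30 entries with at least 5 such neighbours. The dashed line marks equal values and filled points were called. TRAF1 stands 1.25 above its neighbours' median and IRAK1 lies 0.68 below it.

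Other genes of the pathway were compared in 6 lists of 77 genes, of which 68 were tested. In these lists 4 genes (5.88%) were called higher and 6 (8.82%) lower, against 4.67% and 4.61% of all genes tested, and the median log2 fold change was -0.05. Of 15 tested inhibitors of the pathway, TNFAIP3, TNIP1 and NFKBIA were called higher and none was called lower. TNFAIP3, an enzyme that edits ubiquitin chains on TRAF6 and RIPK1, rose by 1.72 on the log2 scale, with 2.72 FPKM (1.59 to 3.84) in the parental line and 11.2 FPKM (6.63 to 15.8) in LM2-4175. Its binding partner TNIP1 rose from 94.7 to 241.6 FPKM (a log2 fold change of 1.34). BIRC3, a ubiquitin ligase that binds TRAF1 and TRAF2, was the single call among 14 ubiquitin enzymes, with 10.1 FPKM (7.59 to 12.6) in the parental line against 25.0 FPKM (19.3 to 30.7) in LM2-4175.

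Receptors and signal proteins that feed into the same kinases were called lower in 4 of 14 cases and higher in none, against 4.61% of all genes tested called lower and 4.67% higher. CD40, a TNF receptor family member that signals through TRAF proteins, fell from 26.2 FPKM (19.2 to 33.2) to 8.39 FPKM (5.76 to 11.0). IL1R1, the interleukin-1 receptor that uses MYD88, IRAK and TRAF6, fell from 6.95 FPKM (4.58 to 9.32) to 3.06 FPKM (1.91 to 4.20). CARD10 and MALT1, which form a complex with BCL10 upstream of IKK, fell by 1.33 and 1.20 on the log2 scale. BCL10 itself had 13.3 FPKM in MDA-MB-231 and 20.4 FPKM in LM2-4175 and was not called.

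Among 7 tested co-receptors and chaperones of the Toll-like receptors, CNPY3, which folds receptors in the endoplasmic reticulum, was called lower with 58.4 FPKM (44.9 to 72.0) and 33.0 FPKM (25.0 to 40.9). LY96, the co-receptor of TLR4 also named MD-2, had 3.88 FPKM (2.16 to 5.61) and 6.81 FPKM (4.07 to 9.55), past 1.5-fold with overlapping bounds. CD14, which hands lipopolysaccharide to TLR4 and LY96, had 1.17 and 1.75 FPKM, and LBP was under 0.2 FPKM in both lines. Of 13 tested genes of the interferon branch, IFIH1, a sensor of double-stranded RNA, was called lower with 6.94 and 3.09 FPKM, and the median of this list was -0.33. Both lists, the co-receptors and chaperones and the interferon branch, held 1 gene called lower each, against 4.61% of all genes tested. None of the 5 genes for NF-kB subunits was called, and NFKB2 had the largest change, with 23.0 FPKM (15.5 to 30.6) and 39.7 FPKM (27.3 to 52.0). Of 16 tested genes known to be targets of NF-kB, 14 were called higher, against 4.67% of all genes tested. Most encode secreted or surface products, and the enzymes PTGS2 and SOD2 are also among the 16. Their median log2 fold change was 3.80. This list had been seen to differ in these libraries and is not independent evidence.

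**Figure D5:**
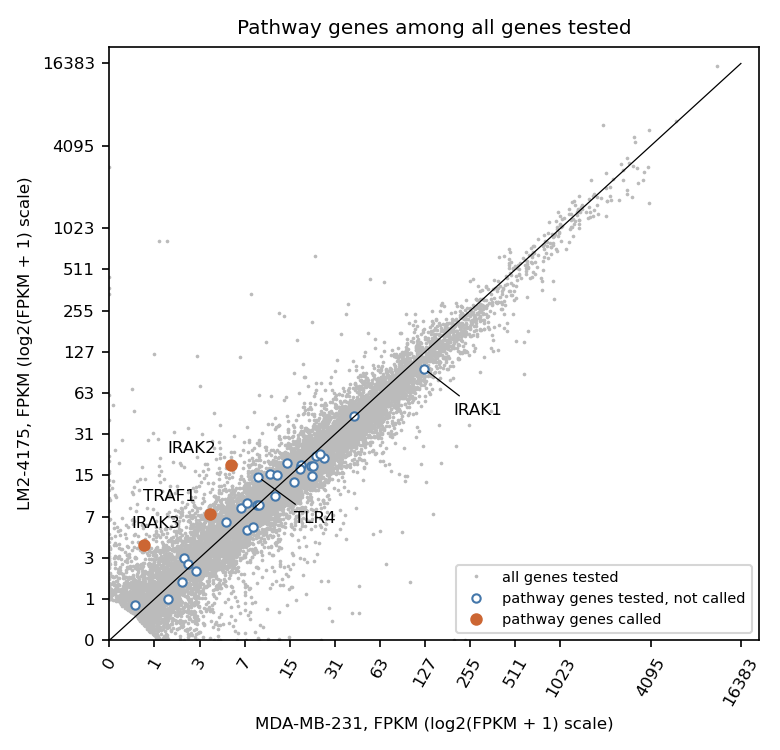
FPKM in LM2-4175 against MDA-MB-231 on axes scaled as log2(FPKM + 1), with the 13911 genes tested in grey, the pathway genes as open blue circles and those called in orange. IRAK2, IRAK3 and TRAF1 stand above the diagonal, and IRAK1 is the highest pathway gene in both lines.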

How the data were processed

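RNA-Seq covered MDA-MB-231 and its lung-metastatic derivative LM2-4175, whose columns in the table are headed LM2 (2 libraries each, 4 in all). The authors aligned reads to hg19 with TopHat2 and quantified genes of GENCODE 19 with Cufflinks (Cuffdiff per the labels), and the deposited FPKM values and their bounds combine the libraries of a cell line. Normalization between libraries and use of strand are not given in the sources used here, and the depth counted on genes is unknown. The test planned on libraries (limma) could not be run on 1 value per cell line. Genes with a status of OK and a mean of at least 0.5 FPKM were tested with a pseudocount of 1, as described with the results, in Python 3.11.15 (NumPy 2.4.6, pandas 2.3.3, Matplotlib 3.10.9). The bounds' ratio range divides the lower bound of one line by the upper bound of the other. Positions and exon overlaps came from GENCODE 44 on GRCh37, which matched 55535 genes by Ensembl ID but not IKBKG. Promoters were matched by symbol, and 8 of the 37 genes had no entry. The direction and call were tested on simulated data, and 12 alternatives were run. The filter, motif search, exon overlaps and neighbours were not tested on simulated data. All members and, of other lists, at most 5 genes called with the largest change were to be named. Others, such as LY96, CD14, LBP, BCL10, NFKB2, PTPRC, CSF1R and FCER1G, were named with their values in view. The members and lists were chosen with earlier results of these data known.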

Additional observations from a re-analysis of the deposited data

How the results depend on the processing

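The counts of pathway genes called were 2 to 4 higher and 0 lower under all 12 alternatives, and IRAK2 was called in each. TRAF1 was not called at a fold threshold of 2, IRAK3 was not tested at a mean of at least 5 FPKM, and TLR4 was called with the fold alone, with a rule on the standard errors, after scaling to the same FPKM sum (log2 fold change 0.76) and after quantile normalization (0.70). The median of the pathway genes ranged from -0.04 to 0.05. The signs of TRAF5, TAB1 and CHUK turned with the FPKM scaled to the same sum, those of TRAF5 and TAB1 with changes centred on the median of all genes, and that of TRAF5 with quantile normalization.
Among all genes tested, 1290 were called, 649 higher and 641 lower. With a mean of at least 5 FPKM, where fewer genes were tested, there were 764 calls with 321 higher. A fold threshold of 2 gave 853 calls with 403 lower, and 6 calls in the other pathway lists in place of 10. The fold without the bounds gave 3074 calls (1434 higher, 1640 lower) and 19 in the other pathway lists. The rule on the standard errors, which were derived from the bounds and used without a fold, gave 2318 (1054 higher, 1264 lower) and 16.
No paired analysis was possible because the table gives 1 value per cell line, and leaving out a replicate could not be run for the same reason. The bounds are widest for low genes, and differences of TLR1, TLR5 and the endosomal receptors could not be resolved at these levels.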

Other observations

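TLR7 and TLR8 lie together on chromosome X in a stretch where all 19 protein-coding neighbours tested within 3 Mb were lower in LM2-4175, 8 of them called (4.8% of all protein-coding genes tested were called lower), and their median was -0.80 on the log2 scale. Both receptors were too low to be tested there. PELI2, a ubiquitin ligase that binds IRAK proteins, had 0.539 FPKM in MDA-MB-231 and 2.47 FPKM in LM2-4175, a log2 fold change of 1.17 with overlapping bounds. CYLD, an enzyme that removes ubiquitin chains in this pathway, had 12.4 and 20.6 FPKM, and SIGIRR, a receptor that restrains Toll-like and interleukin-1 receptor signalling, had 13.1 and 7.35 FPKM, both past 1.5-fold with overlapping bounds. These genes were chosen after their values were seen.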
